A study of Homo sapiens with 6 samples.

Results

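The genes described here encode nurim (NRM), the 3 lamins (LMNA, LMNB1 and LMNB2) and the lamin B receptor (LBR). They also encode 3 LEM domain proteins or their partner (EMD, TMPO and BANF1) and the SUN proteins SUN1 and SUN2. They are 10 of the 18768 genes in the count table, taken by name, with all transcripts of each gene summed. NRM was picked for its difference between the groups compared here, so its values are given as a description with no test. The other 9 were picked for their place at the nuclear envelope.

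The libraries came from HCT116, a long-established colorectal cancer cell line of human origin, transfected with an siRNA against the lncRNA AC010789.1 (Si-AC010789.1, libraries Si1, Si2 and Si3) or with a negative control siRNA (control, libraries N1, N2 and N3). All 6 cultures thus carried a transfected siRNA, and the knockdown group rested on 1 siRNA in 1 cell line. The comparison asked which mRNAs differ once AC010789.1 is silenced. The study names cells of different generations as a possible source of the spread within groups, and no label says more about how the cultures were separated, so p-values measure only the spread between these samples.

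The inner nuclear membrane is held to the chromatin by a meshwork of lamins, intermediate filament proteins that line the inside of the nucleus. Membrane proteins anchored there bind the lamins, DNA or chromatin proteins, and the SUN proteins reach across the envelope to the nesprins, which in turn hold the cytoskeleton. Nurim is a multi-pass protein of this membrane with no large domain in the nucleus. Far less is known of its role than of the roles of the lamins.

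Totals ranged from 11277222 to 13443866 counts a library, and 3 counts, taken as the floor, stood for 0.223 to 0.266 CPM (counts scaled to library size with TMM factors). Libraries of 1 group differed beyond sampling noise, with a chi-square per gene of 13.6 to 16.8, so none was a second copy of another, which does not show that the cultures were independent. The level of AC010789.1 itself was not analysed here. The label HCT116 was checked against markers. Of 9 epithelial markers, 5 were in the table. KRT8 and KRT18 were abundant, at 444 to 850 and 351 to 535 CPM. EPCAM was at 3.10 to 5.59 CPM, CDH1 at 0.675 to 1.05 CPM, and LGALS4 at 0 to 0.225 CPM. KRT19, KRT20, CDX2 and VIL1 were not analysed here. Thus the keratins fitted the label, while other defining epithelial markers were low. The fibroblast markers, 2 of 4 in the table, summed to 39.3 to 48.4 CPM in the control and 42.3 to 50.3 CPM in Si-AC010789.1 libraries, nearly all of it COL1A1. The immune markers, 2 of 4 in the table, summed to 6.08 to 9.05 CPM in the control and 2.59 to 5.35 CPM in the Si-AC010789.1 group, and the endothelial markers, 2 of 3, to 0.873 to 2.51 CPM over all libraries. Their part in the results below was not tested.

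NRM lies on chromosome 6, in the major histocompatibility complex region, at chr6:30688047-30691420 (GRCh38) on the minus strand. It has 8 transcripts in the table, which share the last exon of 893 bases and differ in what stands before it. The sequences of these splice joins are shown because they are what separates the transcripts whose counts are given below. In the coding transcript NRM-203, exon 2 is joined to exon 3 (chr6:30689276-30689452, 177 bases). In NRM-206 exon 2 runs on for 22 bases (chr6:30690025-30690046). In NRM-202 exon 3 is skipped. All are read 5′ to 3′ on the transcript from the GENCODE v29 transcripts. Capitals mark the start of exon 3 in NRM-203, the added bases in NRM-206 and the start of the last exon in NRM-202.
NRM-203: ctggccttgcagCTGGTGATGCGG
NRM-206: gcagGTATGAGGCCCTGGCCTTGCAGctgg
NRM-202: ctggccttgcagGTATACTACCAT
The shorter and the longer exon 2 end in the same 15 bases, so a read that starts close to the join cannot tell them apart.

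NRM stood at 37.1, 38.8 and 42.0 CPM in N1, N2 and N3, and at 13.5, 10.3 and 13.2 CPM in Si1, Si2 and Si3. Every Si-AC010789.1 library was below every control library, and the groups were far apart against their own spread. The control mean was 39.3 ± 2.48 CPM and that of the Si-AC010789.1 libraries 12.3 ± 1.75 CPM (SD over 3 libraries each), a level 3.19-fold lower. The log2 fold change of NRM was -1.67 (SE 0.12), and it stayed between -1.74 and -1.56 when any library was left out. Among the 13764 genes tested, 19 had a lower log2 fold change, and 0 of these had a control level as high as that of NRM. These are the values that chose the gene.

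**Figure D1:**
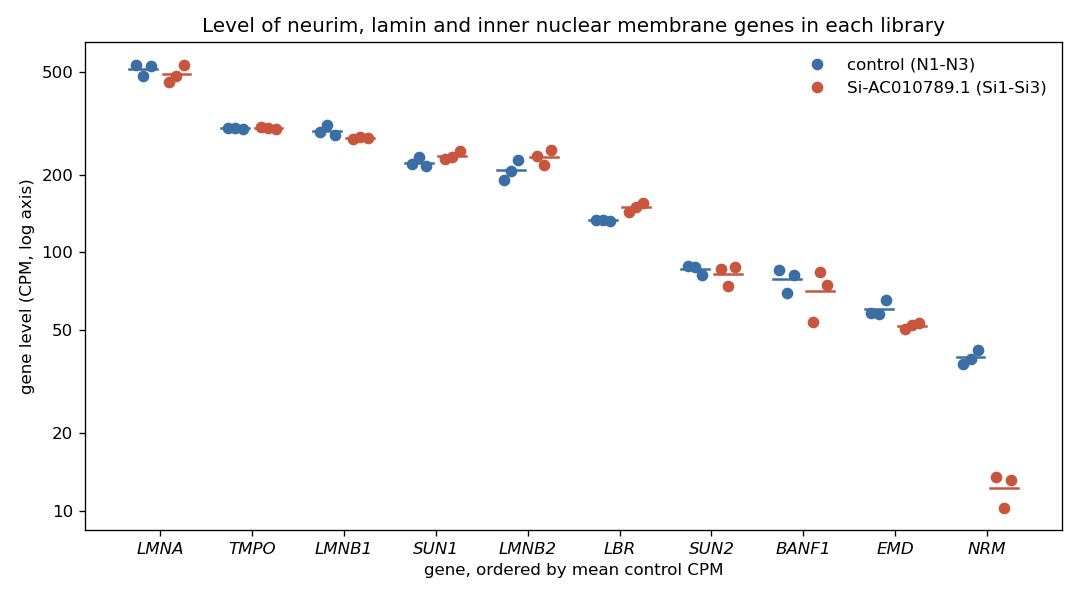
Gene level in CPM (log axis) of the 10 genes in each library, with control libraries in blue, Si-AC010789.1 libraries in red and a line at each group mean. NRM lies at 37.1 to 42.0 CPM in the control and 10.3 to 13.5 CPM in Si-AC010789.1, while TMPO lies at 301 to 305 CPM in all 6.

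The other 9 genes stayed close to their control levels. None had an adjusted p under 0.05 (edgeR's quasi-likelihood test, Benjamini-Hochberg over all genes tested; DESeq2 also called 0 of the 9), and 2 of them, LBR and EMD, had an unadjusted p under 0.05. Over all genes tested, 0.944% passed the adjusted threshold in edgeR and 5.21% of those with an adjusted p did in DESeq2, and 17.2% had an unadjusted p under 0.05. The median log2 fold change of the 9 was -0.056, beside -0.00059 over all genes tested, and their values ran from -0.22 to 0.17. The groups did not overlap for 3 of the 9, which is read against 25.1% of all genes tested.

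Among the membrane proteins, LBR binds B-type lamins and heterochromatin and is also a sterol reductase of cholesterol synthesis. It stood at 133, 134 and 132 CPM in N1 to N3 and at 143, 150 and 155 CPM in Si1 to Si3. The Si-AC010789.1 libraries were all higher, by a log2 fold change of 0.17 (SE 0.048, 95% interval 0.052 to 0.28), with an adjusted p of 0.162 in edgeR's test. EMD encodes emerin, a LEM domain protein that binds lamins and BANF1. It stood at 58.4, 57.8 and 65.3 CPM in the control and at 50.4, 52.3 and 53.5 CPM in Si-AC010789.1. The groups did not overlap here either, with a log2 fold change of -0.22 (SE 0.073, 95% interval -0.39 to -0.042) and an adjusted p of 0.214 in edgeR's test. TMPO encodes the lamina-associated polypeptides 2, of which the alpha form is soluble in the nucleus and the beta form is anchored in the membrane. TMPO was the steadiest of the 10, at 302, 303 and 301 CPM in N1 to N3 and 305, 303 and 301 CPM in Si1 to Si3. Its log2 fold change of 0.0054 had a 95% interval of -0.079 to 0.089, and the adjusted p was 0.955 in edgeR's test.

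The lamins differ in type. LMNA gives the A-type lamins A and C, and LMNB1 and LMNB2 give the B-type lamins. LMNA stood at 530, 480 and 525 CPM in the control and at 455, 479 and 532 CPM in Si-AC010789.1, so the groups overlapped (log2 fold change -0.065, SE 0.072, edgeR adjusted p = 0.699). LMNB1, whose protein is a common marker of the nuclear fraction, stood at 292, 311 and 284 CPM in N1 to N3 and at 274, 279 and 278 CPM in Si1 to Si3. Its Si-AC010789.1 libraries all lay below the controls, by a log2 fold change of -0.095 (SE 0.047, 95% interval -0.21 to 0.018), and edgeR's adjusted p was 0.363. LMNB2 stood at 190, 206 and 227 CPM in the control and at 235, 217 and 248 CPM in Si-AC010789.1, which overlapped (log2 fold change 0.17, SE 0.081, 95% interval -0.025 to 0.36, edgeR adjusted p = 0.35). LMNB2 shares bases with TIMM13 on the same strand, so part of its reads is uncertain.

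SUN1 and SUN2 span the inner membrane and hold the nesprins. SUN1 stood at 219, 233 and 215 CPM in the control and at 230, 233 and 246 CPM in Si-AC010789.1 (log2 fold change 0.087, SE 0.05, edgeR adjusted p = 0.434). SUN2 stood at 88.4, 87.8 and 81.9 CPM in N1 to N3 and at 86.4, 74.1 and 87.8 CPM in Si1 to Si3 (log2 fold change -0.056, SE 0.082, edgeR adjusted p = 0.777), and its direction turned to 0.02 without Si-AC010789.1 replicate 2. Both pairs of groups overlapped. SUN1 overlaps GET4 on the same strand, and SUN2 overlaps DNAL4 on the same strand and GTPBP1 on the other. BANF1 encodes the barrier-to-autointegration factor, a small protein that bridges DNA and the LEM domain proteins. Of the 10 genes it varied most within groups, at 85.6, 69.8 and 82.0 CPM in the control and 53.8, 84.0 and 74.8 CPM in Si-AC010789.1. The low value was that of Si1 alone. The log2 fold change of BANF1 was -0.16 (SE 0.17, 95% interval -0.57 to 0.25, edgeR adjusted p = 0.691) with all libraries and 0.0051 without Si-AC010789.1 replicate 1. BANF1 overlaps EIF1AD on the other strand and has processed pseudogenes elsewhere, of which BANF1P3 was in the table at a mean of 1.59 CPM.

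Levels per length, computed here as TPM from counts over annotated transcript lengths, set the genes in order. LMNA was highest, at 442 to 517 TPM over the 6 libraries, and was followed by LMNB1 (193 to 340 TPM), TMPO (171 to 195 TPM), BANF1 (103 to 208 TPM) and SUN1 (150 to 184 TPM). The ranges of the last 4 overlapped from each gene to the next. EMD (85.9 to 113 TPM), LMNB2 (80.5 to 105 TPM) and LBR (72.1 to 86.1 TPM) formed a lower set of overlapping ranges. SUN2 followed at 52.3 to 67.0 TPM. NRM came last in both groups, at 48.9, 46.1 and 59.8 TPM in the control, which overlapped SUN2, and at 19.4, 14.7 and 18.7 TPM in Si-AC010789.1, which did not. These levels depend on how reads were divided over transcripts of unlike length. LMNB1, for example, spanned 193 to 340 TPM while its gene sum spanned 274 to 311 CPM. With the length of the longest transcript for each gene, LMNB2 (mean 119 TPM) came above EMD (103 TPM).

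The wider nuclear envelope was examined in a list of 60 other genes. Of these, 54 were tested, 1 fell past the threshold and 0 rose past it. Over all genes tested, 0.676% fell and 0.269% rose past it. The median log2 fold change of the 54 was -0.035, with 23 above and 31 below 0, and the groups did not overlap for 10 (18.5%, below the 25.1% of all genes tested). SYNE4, SUN3 and PLPP7 were under the filter on low counts, and SUN5, LEMD1 and BANF2 were not analysed here.

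The gene that fell was TOR1AIP1, which encodes LAP1, an inner nuclear membrane protein that binds lamins and activates the ATPase torsinA. TOR1AIP1 stood at 105, 108 and 104 CPM in N1 to N3 and at 60.8, 57.4 and 59.2 CPM in Si1 to Si3. The groups were tight and far apart. Its log2 fold change was -0.84 (SE 0.053), with an adjusted p of 0.00693 in edgeR's test over all genes. The adjusted p stayed between 0.0229 and 0.0414 in edgeR fits that left out 1 library each. Most of its counts were in TOR1AIP1-212, with 808, 885 and 1183 counts in the control and 573, 472 and 540 in Si-AC010789.1. TOR1AIP2, which encodes the related torsin activator LULL1 and did not pass, stood at 176 to 193 CPM in the control and 159 to 190 CPM in Si-AC010789.1, and TOR1A, the torsin itself, at 72.0 to 79.5 and 76.0 to 77.1 CPM.

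By subgroup, all 5 genes of lamin processing, whose products act on the lamin tail, were tested and 0 passed. RCE1, the protease that removes the last residues after farnesylation, had the smallest unadjusted p among list genes with higher values, at a log2 fold change of 0.38 (edgeR adjusted p = 0.146). Of 4 nesprin and SUN family genes tested 0 passed, and SYNE3, an outer membrane nesprin, had a log2 fold change of -0.40 (edgeR adjusted p = 0.115). Of 8 genes of the ESCRT machinery that seals the envelope after mitosis 0 passed, with CHMP4B at -0.30 (edgeR adjusted p = 0.0866; CHMP4B was called by DESeq2). NEMP1, an inner membrane protein, had a log2 fold change of 0.35 (edgeR adjusted p = 0.22), with N1 at 83.4 CPM below the other controls at 115 and 108 CPM. DHCR7, a sterol reductase related to LBR, had one of 0.20 (edgeR adjusted p = 0.351). None passed among 4 LEM domain genes, 7 chromatin partners or 9 kinase, phosphatase and lipin genes, whose values in the last set stayed between -0.057 and 0.11.

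**Figure D2:**
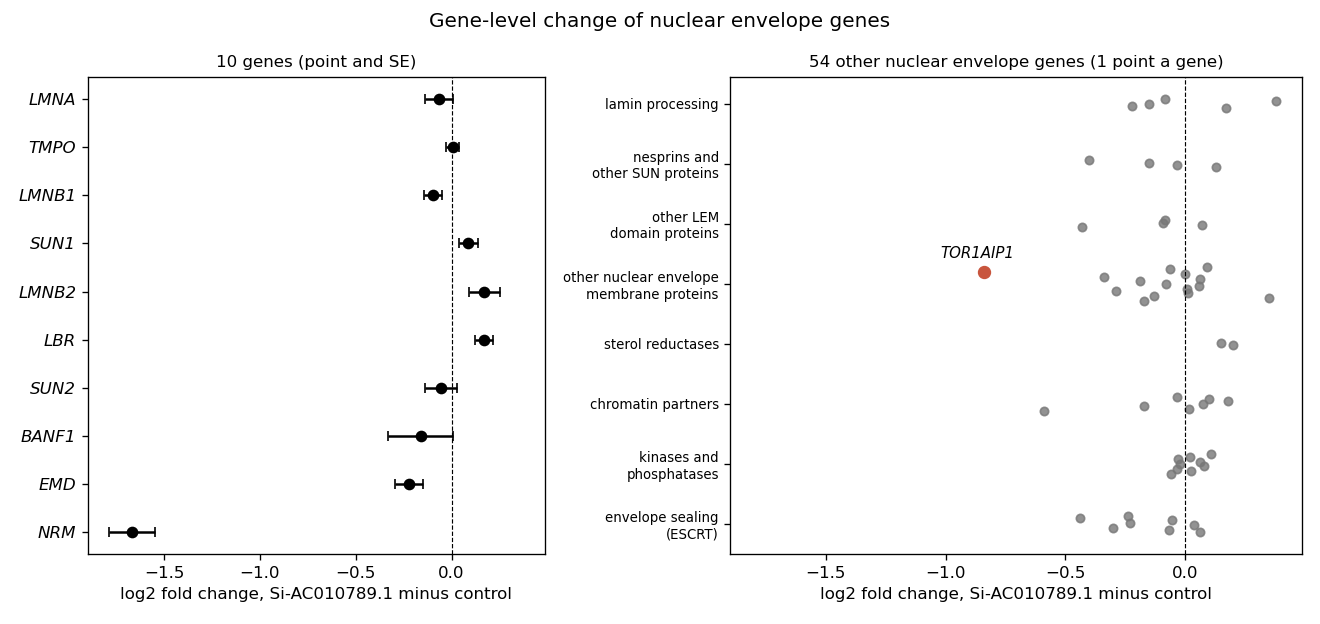
Log2 fold change of gene sums, Si-AC010789.1 minus control, for the 10 genes (left, points with SE) and for 54 other nuclear envelope genes by subgroup (right, 1 point a gene). NRM at -1.67 stands apart on the left, and TOR1AIP1 at -0.84 (red) is the only list gene past the adjusted threshold.

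NRM's neighbours were examined next, since the position of the gene had no part in its choice. Of 19 other annotated genes within 100 kb, 14 were in the table, 11 were tested and 0 passed the threshold (0.944% of all genes tested did). With edgeR 1 of the 11 had an unadjusted p under 0.05 (17.2% of all genes tested did). DESeq2 also called 0 (5.21% of all genes with an adjusted p). Their log2 fold changes ran from -0.19 to 0.29. PPP1R18, which starts on the same strand 151 bases past the end of NRM, stood at 35.1, 44.2 and 20.8 CPM in the control and 46.7, 34.4 and 24.4 CPM in Si-AC010789.1. This was the noisiest neighbour, with a log2 fold change of 0.076 (SE 0.33). MDC1, a mediator of the DNA damage checkpoint 8386 bases away on the other side, had a log2 fold change of -0.074 (SE 0.10, edgeR adjusted p = 0.746). The groups did not overlap for MRPS18B, which was higher in Si-AC010789.1 (0.29, edgeR adjusted p = 0.135), or for PPP1R10 (-0.14, edgeR adjusted p = 0.303) and DHX16 (-0.19, edgeR adjusted p = 0.292). These are 3 of 11 genes, beside 25.1% of all genes tested. ABCF1, ATAT1, C6orf136, TUBB, FLOT1 and IER3 had log2 fold changes of 0.11, -0.058, -0.04, 0.10, -0.024 and 0.0071, with overlapping groups. NRM overlaps no other annotated gene.

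**Figure D3:**
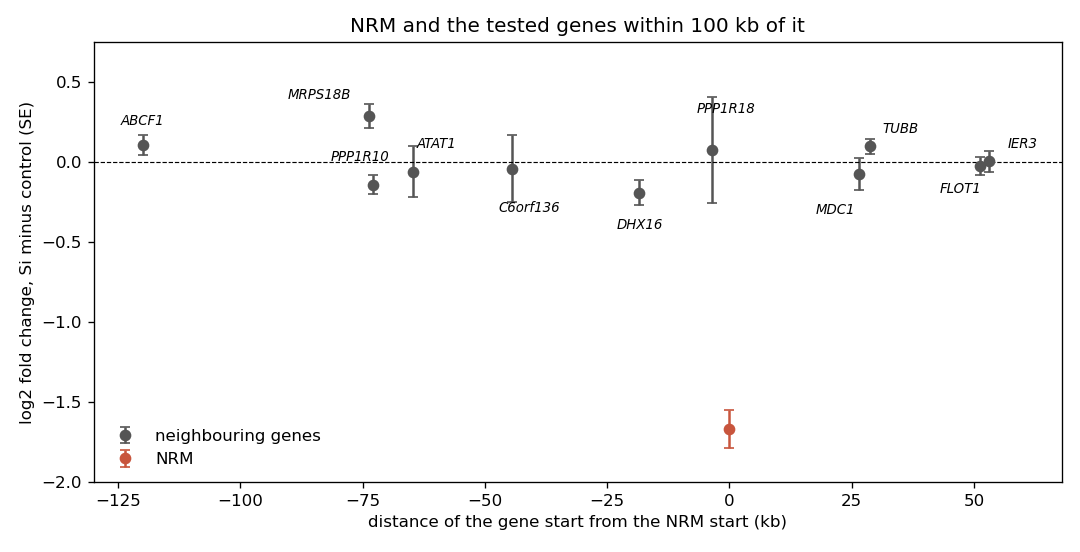
Log2 fold change (points, with SE) of NRM and of the 11 tested genes within 100 kb, against the distance in kb between gene starts. NRM lies at -1.67 and its neighbours between -0.19 and 0.29.

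Among the NRM transcripts, the counts of single transcripts jumped between libraries of 1 group while their sum did not. NRM-203, which codes for 262 residues, had 146, 427 and 5 counts in N1 to N3 and 4, 13 and 12 in Si1 to Si3. NRM-206, which has the longer exon 2 and no annotated coding sequence, had 204, 32 and 238 counts in the control and 67, 49 and 62 in Si-AC010789.1. NRM-204 has 784 annotated coding bases, which is not a whole number of codons. It had 0, 12 and 132 counts in the control and 22, 28 and 32 in Si-AC010789.1. The groups overlapped for each of these 3. They did not for NRM-207, which has no annotated coding sequence. It had 24, 15 and 43 counts in the control and 11, 10 and 6 in Si-AC010789.1 (edgeR adjusted p = 0.818 over all transcripts). Of the 7 NRM transcripts with at least 5% of the gene's counts in a group, 7 varied over 2-fold within a group. The NRM sum in CPM varied by no more than 1.31-fold within a group. Of 7 NRM transcripts tested 0 passed the threshold.

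Grouped by structure, the sum of transcripts with exon 3 was steady within groups, and the other sums were not. Transcripts with exon 3 summed to 31.0, 35.5 and 28.1 CPM in the control and to 8.12, 7.59 and 8.58 CPM in Si-AC010789.1. Those that skip exon 3 summed to 6.12, 3.32 and 13.9 CPM in the control and 5.33, 2.72 and 4.62 CPM in Si-AC010789.1. Transcripts with the longer exon 2 summed to 19.2, 2.56 and 20.9 CPM in the control and 8.12, 3.91 and 7.13 CPM in Si-AC010789.1, which overlapped. The exon 3 transcripts did not overlap between groups, and the skipping ones did. As a share of NRM, exon 3 transcripts made up 80.7% ± 12.5 in the control and 66.4% ± 6.73 in Si-AC010789.1 (SD, n = 3 each), and these shares overlapped, so a difference in exon 3 use was not told from replicate spread. The 3 coding transcripts summed to 15.2, 33.2 and 15.1 CPM in the control and 2.88, 4.71 and 4.45 CPM in Si-AC010789.1. The 5 transcripts with no coding sequence summed to 21.9, 5.65 and 26.9 CPM in the control and 10.6, 5.59 and 8.74 CPM in Si-AC010789.1, which overlapped. These groups share the gene sum that chose NRM and are a description.

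**Figure D4:**
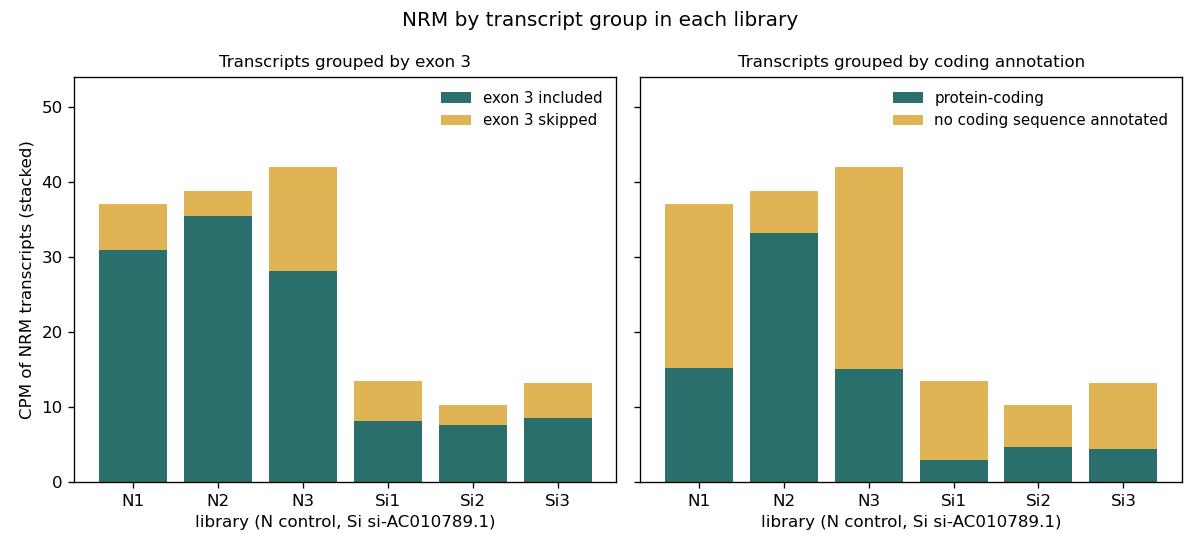
CPM of NRM in each library as stacked bars, split by whether the transcript holds exon 3 (left) and by whether it is annotated as coding (right). The exon 3 part lies at 28.1 to 35.5 CPM in the control and 7.59 to 8.58 CPM in Si-AC010789.1, while the split by coding differs between control libraries.

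The same uneven division was seen in EMD, LMNA, LMNB1, SUN2 and BANF1. In LBR, TMPO, LMNB2 and SUN1, 0 transcripts with at least 5% of their gene varied over 2-fold within a group. The 10 genes had 121 transcripts in the table, of which 67 were tested and 0 passed (0.0135% of all transcripts tested passed). With edgeR 5 of the 67 had an unadjusted p under 0.05 (5.74% of all), and DESeq2 called 1 (1.55% of those with an adjusted p). Of the 34 transcripts that held at least 5% of their gene, 23 varied over 2-fold within a group and 5 were at 0 in at least 1 library. Replicates scattered accordingly, with a biological coefficient of variation of 0.698 over transcripts against 0.170 over genes. For LMNB1, the full-length coding transcript LMNB1-201 had 303, 44 and 3545 counts in the control and 934, 1792 and 1158 in Si-AC010789.1, that is from 1.07% to 93.8% of the gene. SUN2-201 and SUN2-202, which code for 738 and 717 residues, exchanged counts, with 651, 92 and 908 for the former and 162, 982 and 8 for the latter in the control. Together they made up 85.9% ± 5.59 of SUN2 in the control and 86.3% ± 10.5 in Si-AC010789.1. TMPO was steady also by transcript. TMPO-202, the alpha form, held 31.2% ± 0.565 of the counts in the control and 32.6% ± 1.08 in Si-AC010789.1, and TMPO-212, the beta form, 60.6% ± 2.53 and 59.5% ± 1.32.

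The tails of the lamins are shown because the lamin processing enzymes act on them. Prelamin A and the B-type lamins end in a box whose cysteine is farnesylated. The last coding bases and the stop codon are given 5′ to 3′ from the GENCODE v29 transcripts, with the cysteine codon in capitals.
LMNA-206 (prelamin A): agcccccagaacTGCagcatcatgtaa
LMNB1-201 (lamin B1): tccaatagaagcTGTgcaattatgtaa
LMNB2-201 (lamin B2): acctcaagaggcTGCtacgtgatgtga
Transcripts with the prelamin A tail held 84.8% ± 5.62 of LMNA counts in the control and 90.3% ± 3.53 in Si-AC010789.1, and the shares overlapped.

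Except in N2, most counts of the prelamin A tail were assigned to LMNA-205 and not to LMNA-206. LMNA-205 lacks 150 bases of the coding sequence (chr1:156138608-156138757, plus strand, codons 607 to 656 of 664) and is otherwise identical to LMNA-206 in it. The missing codons are those absent from progerin, the lamin A of the premature ageing disease Hutchinson-Gilford progeria, which keeps its farnesyl group because the cutting site of ZMPSTE24 is gone. The join is shown with the first bases after the missing stretch in capitals.
LMNA-205: tcaggagcccagAGCCCCCAGAAC
LMNA-205 had 5195, 1860 and 5352 counts in the control and 4274, 4610 and 5737 in Si-AC010789.1, from 29.2% to 87.2% of the gene. LMNA-206 had 88, 3130 and 715 counts in the control and 456, 271 and 254 in Si-AC010789.1. The annotated 3′ UTRs of the transcripts also differ, with 211 bases in LMNA-205 and 983 in LMNA-206. Whether reads crossed the join of LMNA-205 cannot be seen in a count table, so these counts show how reads were assigned and not that progerin was made.

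**Figure D5:**
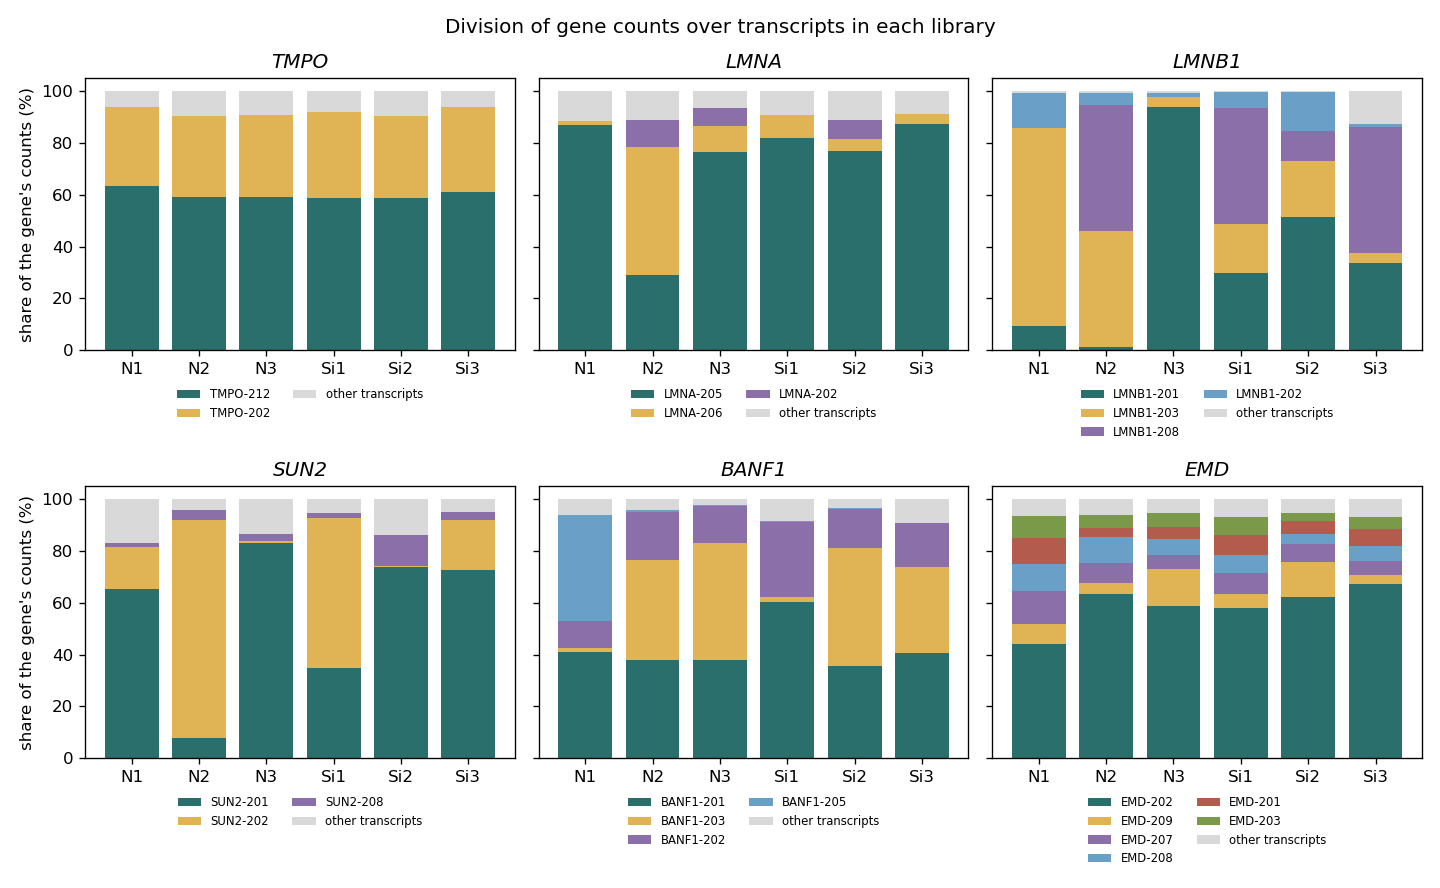
Share of each gene's counts (%) held by the transcripts with at least 5% of the gene, in each library, for TMPO, LMNA, LMNB1, SUN2, BANF1 and EMD, with all other transcripts in grey. TMPO-212 holds 58.6% to 63.5% of TMPO in all 6 libraries, whereas LMNB1-201 runs from 1.07% to 93.8%.

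The study follows miR-432-3p, a miRNA examined together with AC010789.1. Its mature sequence is shown with the seed (bases 2 to 8) in capitals, from RefSeq (GRCh38.p14, chr14:100884544-100884564, plus strand).
miR-432-3p: cUGGAUGGcuccuccaugucu
The matching 7-base sites, CCATCCA and CATCCAA, which overlap in a longer site, were searched on the sense strand of the annotated 3′ UTRs. A site was found in 0 of the 10 genes, and also not in TOR1AIP1, while 2363 of 12304 tested genes with an annotated 3′ UTR (19.2%) held a site. The longest 3′ UTR of NRM was 614 bases. The level of miR-432-3p was not analysed here.

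The 5 genes whose pattern over the 6 libraries was most like that of NRM were GALNT10 (Pearson r of log2(CPM + 1) 0.998), EFCAB14 (0.998), IGBP1 (0.997), SEC23A (0.996) and RPS4X (0.995). The 6 points fall into 2 clusters, the groups themselves, so that 567 genes reached an r of at least 0.9. The fold changes of these genes were smaller than that of NRM. IGBP1, which binds the catalytic subunit of phosphatase PP2A, stood at 65.2, 70.4 and 72.3 CPM in the control and 45.1, 40.0 and 44.9 CPM in Si-AC010789.1. SEC23A, a coat protein of vesicles that leave the endoplasmic reticulum, stood at 140, 137 and 143 CPM and at 98.3, 86.6 and 92.6 CPM.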

How the data were processed

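The authors deposited raw counts, 1 integer for each Ensembl transcript in each library, from paired-end TruSeq libraries sequenced on an Illumina NovaSeq. The submitters' processing notes name CASAVA 1.8, TopHat2 2.0.6 and the builds GRCh38 and mm10. The counting program, the annotation and the division of reads shared by transcripts are not given in the sources used here. Counts of single transcripts depend on that division, and their sum over a gene far less.

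Of 98886 transcripts, 98803 matched GENCODE v29 (GRCh38) and were summed to 18768 genes. These held 99.907% to 99.941% of a library's counts, and 83 transcripts stayed out. Genes (13764) and transcripts (44297) were tested with edgeR 4.0.16 in R 4.3.3 (TMM factors 0.9935 to 1.0073, low counts removed by filterByExpr at a count of 10 and a total of 15, quasi-likelihood test, Benjamini-Hochberg over all features, threshold 0.05), without a replicate block. CPM used TMM-scaled library sizes, and TPM was computed from the deposited counts. Cuffdiff, named by the study, needs alignments and was not run. Floors cover counting error only, while the 95% intervals come from the edgeR fit and hold the spread between replicates. Libraries numbered 3 a group, so an exact permutation test could not go below 0.1. Whether reads were counted by strand is not given.

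The genes and lists were chosen with earlier results of these data known. Named were all 10 genes, list genes past the threshold and the 3 with the smallest unadjusted p in each direction. Also named were tested genes within 100 kb of NRM and the 5 genes most correlated with NRM. Of the transcripts with at least 5% of their gene, some were named and others were not. TOR1AIP2, TOR1A and transcripts outside this rule were chosen after their values were seen. The scripts were tested on simulated data. The sequence and share of 1 group of LMNA transcripts are not reported here. Alternatives were DESeq2 1.42.0, RLE and upper-quartile factors, no filter, a mean of at least 1 CPM, the replicate number as a block, the study's criteria (unadjusted p under 0.05 and absolute log2 fold change over 1) and leaving out each library. Python 3.11.15, pandas 2.3.3, numpy 2.4.6, scipy 1.17.1 and matplotlib 3.10.9 were used.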

Additional observations from a re-analysis of the deposited data

How the results depend on the processing

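DESeq2, leaving out single libraries, other scaling factors and other filters kept the direction of NRM and TOR1AIP1, and TOR1AIP1 past the threshold (its alternatives were chosen after seeing the data). Of the other 9 genes, 3 turned direction near 0. TMPO was at -0.0021 with no filter on low counts, SUN2 at 0.02 without Si-AC010789.1 replicate 2 and BANF1 at 0.0051 without Si-AC010789.1 replicate 1, in ranges of -0.10 to 0.02 and -0.30 to 0.0051 over the libraries left out. The order by level per length kept 8 to 10 of the 10 ranks. The number of genes called moved from 130 to 522 with DESeq2, to 69 with no filter, and to between 12 and 37 with 1 library left out. Transcripts called moved from 6 to 676 with DESeq2, 0 with no filter, 1549 by the study's criteria and between 0 and 6 with 1 library left out. Transcripts of the 10 genes called moved from 0 to 1 with DESeq2 and 3 by the study's criteria. The list of 60 had 2 genes called with DESeq2 and 0 by the study's criteria, since TOR1AIP1 lies inside their limit on fold change.

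Whether replicate numbers pair the libraries was not shown, and 3 libraries a group cannot exclude it. The correlation of deviations was 0.09, 0.00273 and 0.000661 for replicates 1, 2 and 3. The libraries numbered 1 correlated best with each other, and those numbered 2 and 3 with a library of another number. With the replicate number as a block, which leaves fewer residual degrees of freedom, 0 genes and 0 transcripts were called over the whole table, and thus 0 of the 10 genes and 0 of the list. The log2 fold changes of NRM and TOR1AIP1 were then -1.68 and -0.84, with an edgeR adjusted p of 0.101 for TOR1AIP1.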

Other observations

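Some transcripts of these genes were present in few libraries and were picked after their values were seen. BANF1-205, with the full coding sequence, had 398 counts in N1 and 6, 4, 3, 5 and 0 in N2, N3, Si1, Si2 and Si3. BANF1-203, which has no annotated coding sequence, had 13, 358 and 495 counts in the control and 12, 482 and 307 in Si-AC010789.1, so N1 and Si1 stood apart from the other 4. The low BANF1 sum of Si1 thus held few counts of either, while N1 held those of BANF1-205. BANF1-201 was steady, with 398, 351 and 414 counts in the control and 372, 375 and 377 in Si-AC010789.1. LMNB1-204 had 421 counts in Si3 and 0 in the other 5 libraries, and LMNA-202 had 0 counts in N1, Si1 and Si3 and 673, 486 and 453 in N2, N3 and Si2.

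LMNA-225, a short transcript with a retained intron, had 15, 3 and 4 counts in N1 to N3 and 63, 47 and 108 in Si1 to Si3. The groups did not overlap. Its log2 fold change was 3.27 (SE 0.81), and the adjusted p over all transcripts was 0.599 in edgeR's test, while DESeq2 called it. It held no more than 1.64% of LMNA counts in any library, and the groups overlapped for LMNA as a whole.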
